A study of Homo sapiens with 8 samples.

Results

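IL32, the gene of the secreted inflammatory protein interleukin 32, was followed through 8 RNA sequencing libraries of HCT116 cells, a human colorectal carcinoma line. It is 1 of the 19411 genes in the deposited table and was chosen by its measured RNA level with the NORAD guide against the control guide in the parental line, so its values in those 4 libraries are given as a description with no test. All cells carried CRISPR interference (CRISPRi), a method that silences a gene by bringing a repressor on inactive Cas9 to its promoter, and the title of the series concerns the noncoding RNA NORAD and its partners, the PUMILIO proteins. The 4 groups held 2 libraries each: parental CRISPRi cells given a control guide (parental sgControl), parental CRISPRi cells given the NORAD guide (parental sgNORAD), the CRISPRi line labelled circPRE2 with the NORAD guide (circPRE2 sgNORAD) and the CRISPRi line labelled circPRE8 with the NORAD guide (circPRE8 sgNORAD). The labels do not say what circPRE2 and circPRE8 are or whether each line is 1 clone, no circPRE line with the control guide was analysed here, and NORAD itself was not analysed here, so its silencing was not checked.

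IL32 was first found as a transcript of activated T and natural killer cells and is made by many epithelial cells, in which tumour necrosis factor, interleukin 1 and interferon gamma raise it through NF-kappaB, AP-1 and CREB family factors and STAT proteins. The protein binds proteinase 3 and integrins, and in monocytes and epithelial cells it raises the production of tumour necrosis factor, interleukin 6, chemokines and adhesion molecules. Mice and rats have no IL32 gene, so this knowledge comes from human cells.

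The gene (ENSG00000008517.16) lies on chromosome 16 from 3065297 to 3082192 on the plus strand (hg38, GENCODE release 29). Inside its span the annotation places a small nuclear RNA pseudogene, RNU1-125P, and, on the opposite strand, part of the long noncoding RNA gene AC108134.3 (3076911 to 3087100). Whether counting used strand is not given in the sources used here, so reads of IL32 and of that antisense gene may not be separated. RefSeq (GRCh38.p14) gives IL32 2 start sites, and the 2 windows around them, each from 250 bases before to 50 bases after the site, are shown because the results below concern a gene that passed from almost no reads to several RPKM. Both are on the plus strand, and capitals mark the motif matches found:
IL32 window 1, chr16:3065153-3065452: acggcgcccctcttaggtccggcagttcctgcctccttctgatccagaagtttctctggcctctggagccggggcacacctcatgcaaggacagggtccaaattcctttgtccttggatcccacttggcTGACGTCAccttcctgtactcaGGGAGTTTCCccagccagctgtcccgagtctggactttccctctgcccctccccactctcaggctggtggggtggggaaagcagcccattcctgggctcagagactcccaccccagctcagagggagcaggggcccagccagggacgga
IL32 window 2, chr16:3065534-3065833: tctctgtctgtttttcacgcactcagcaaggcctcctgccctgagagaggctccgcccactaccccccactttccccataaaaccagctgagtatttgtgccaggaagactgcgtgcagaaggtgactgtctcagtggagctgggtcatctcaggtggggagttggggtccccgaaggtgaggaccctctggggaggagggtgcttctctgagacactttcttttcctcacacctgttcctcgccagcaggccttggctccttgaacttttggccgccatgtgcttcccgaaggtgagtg

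Window 1 held a cyclic AMP response element, TGACGTCA, the site of CREB and ATF proteins, 121 bases before its start site (3065282 to 3065289). It also held a match to the NF-kappaB motif (GGG, any 2 bases, then TTTCC) 99 bases before the start site (3065304 to 3065313). Both distances are from the RefSeq start site of window 1, 3065403. The GENCODE start of the gene, 3065297, lies between the 2 matches, so the NF-kappaB match is inside the gene as GENCODE places it. Window 2 held no match to any of the 7 motifs searched. On either strand, the cyclic AMP response element was present in 1.85% of 35116 RefSeq windows of 300 bases and the NF-kappaB motif in 1.91%. The other 5 motifs were AP-1 (TGANTCA, 7.71% of windows), the STAT site GAS (TTCNNNGAA, 7.66%), the interferon element ISRE (GAAA, any 2 bases, then GAAA, 3.57%), ETS (CCGGAAGT, 4.14%) and the E-box (CACGTG, 7.26%). Each IL32 window held 7 CpG dinucleotides against a median of 14 over all windows. The PUMILIO motif, written in DNA letters as TGTANATA, was found in 0 of the 35 IL32 transcripts of GENCODE release 29, and 29.5% of 19702 genes had it in at least 1 protein-coding transcript. A motif match is a description of letters and says nothing of binding in these cells.

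IL32 RNA was close to absent with the control guide and was present in all 6 libraries with the NORAD guide. Values are RPKM, read numbers scaled to exon length and depth, as deposited. In parental sgControl, IL32 stood at 0.022 and 0.0278 RPKM in replicates 1 and 2, which came to 3 and 4 reads. In parental sgNORAD it stood at 7.94 and 7.7 RPKM (723 and 1129 reads), in circPRE2 sgNORAD at 6 and 6.26 RPKM (890 and 1010 reads), and in circPRE8 sgNORAD at 1.23 and 0.949 RPKM (176 and 150 reads). The order of the groups was parental sgControl, circPRE8 sgNORAD, circPRE2 sgNORAD and parental sgNORAD, from low to high, and no library of 1 group reached into another. As a ratio, the neighbours closest to each other were circPRE2 sgNORAD and parental sgNORAD. Group means were 0.0249 ± 0.00411, 1.09 ± 0.198, 6.13 ± 0.186 and 7.82 ± 0.168 RPKM in the same order (SD, n = 2).

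**Figure D1:**
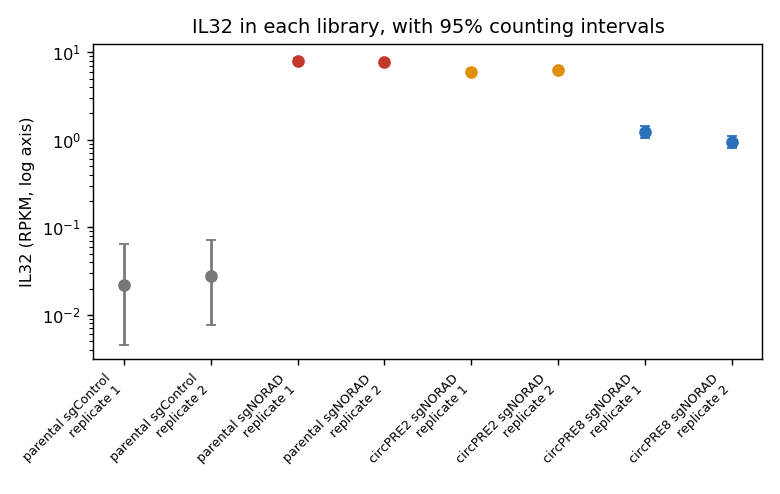
IL32 level (RPKM, log axis) in each of the 8 libraries, with 1 point per library and bars for the exact 95% Poisson interval of its reads. The 2 control libraries sit at 0.022 and 0.0278 RPKM, the circPRE8 sgNORAD libraries near 1, and the circPRE2 sgNORAD and parental sgNORAD libraries between 6 and 7.94.

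Counting error limits the control values most. The 95% Poisson intervals of the control libraries ran from 0.00453 to 0.0642 and from 0.00757 to 0.0711 RPKM, whereas those of parental sgNORAD ran from 7.37 to 8.54 and from 7.26 to 8.16. Summed over the 2 libraries of a group and set against their scaling sizes, IL32 reads were 312 times as frequent in parental sgNORAD as in parental sgControl (95% counting interval 151 to 778), 246 times in circPRE2 sgNORAD (119 to 612) and 43.4 times in circPRE8 sgNORAD (20.8 to 109). These intervals are exact and cover counting error only, since PCR copies are not independent molecules. In bulk RNA, more cells with IL32 and more IL32 RNA per cell cannot be told apart.

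Among all genes of a library, IL32 moved from the barely detected to the commonly expressed range. In the control libraries, 26.4% and 27.9% of the 19411 genes stood below it. In parental sgNORAD the share below it was 72.4% and 72.3%, in circPRE2 sgNORAD 67.2% and 68.2%, and in circPRE8 sgNORAD 47.8% and 45.7%. There were 6378 genes below 0.1 RPKM in both control libraries, and IL32 was the only 1 of them at 1 RPKM or more in both parental sgNORAD libraries. This count uses the same libraries as the choice of IL32 and is a description.

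Library sizes in the deposited scaling were 28.39 to 50.28 megareads, the smallest being parental sgNORAD replicate 1, and 15363 to 15934 genes were above 0 in a library. The 9 listed markers of colorectal epithelium, such as EPCAM and keratins, summed to 1230 to 1250 RPKM in circPRE8 sgNORAD and to 967 to 1080 in the other groups, with CDX1 at 0 in all 8 libraries and VIL1 at or below 0.0144. Beside the drop of IL32 between circPRE2 sgNORAD and circPRE8 sgNORAD, 4 of the 7 tested markers rose, all keratins, and CDH1 and EPCAM fell. Of all tested genes, 18% rose and 25.7% fell in that comparison. The summed level of 14 T and natural killer cell markers was 2.92 to 3.14 RPKM in parental sgControl, 2.23 to 2.31 in parental sgNORAD, 2.3 to 2.32 in circPRE2 sgNORAD and 3.71 to 4.04 in circPRE8 sgNORAD. That sum came mostly from PRF1, the perforin gene and the only marker of the list tested (2 to 3.62 RPKM), whose log2 difference was -0.44 with the guide and 0.69 between circPRE8 sgNORAD and circPRE2 sgNORAD, opposite in sign to that of IL32. CD3G, GZMA and GZMB were at 0 in all 8 libraries, and 10 of the 14 markers were below 0.1 RPKM in all 8. Monocyte markers (6 genes) summed to 0.47 to 0.524 RPKM in circPRE8 sgNORAD and to 0.208 to 0.317 in the other groups. Endothelial markers (4 genes) summed to 0.106 to 0.122 RPKM in parental sgControl and to 0.122 to 0.198 in the groups with the NORAD guide. Fibroblast markers (6 genes) summed to 3.28 to 3.46 RPKM in parental sgControl and to 3.91 to 6.21 in the groups with the NORAD guide. The 4 markers of embryonic kidney and neural lines summed to 1.51 to 1.63 RPKM in the parental groups, 2.4 to 2.44 in circPRE2 sgNORAD and 2.74 to 2.92 in circPRE8 sgNORAD. Nearly all of that was PAX2, which was higher in both circPRE lines than in parental sgNORAD (log2 differences 0.6 and 0.82), and WT1 was at 0 in all 8. The part of these levels in the IL32 result was not tested.

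On the scale log2(RPKM + 0.1), on which the genes were tested and which understates changes of low genes, IL32 was 5.99 higher (SE 0.11) in parental sgNORAD than in parental sgControl. This difference was 7.82 with a constant of 0.01 in place of 0.1 and 3.1 with a constant of 1, so its size depends on the constant. Of 11585 genes tested with limma and Benjamini-Hochberg adjustment, 20.9% were higher and 16.4% lower in that comparison, and with median-of-ratios scaling the balance turned, with 18% higher and 19.7% lower. Between circPRE2 sgNORAD and parental sgNORAD, IL32 was lower by 0.35 in circPRE2 sgNORAD (log2 difference -0.35, SE 0.11), which is 0.787 of the read frequency (95% counting interval 0.738 to 0.84). In that comparison 10.9% of tested genes were higher and 7.91% lower, and with median-of-ratios scaling 9.37% were higher and 11.2% lower. Between circPRE8 sgNORAD and parental sgNORAD the IL32 difference was -2.75, at 13.9% of the parental sgNORAD mean, in a comparison where 23.6% of tested genes were higher and 28.6% lower (26.9% and 26% with median-of-ratios scaling). Both comparisons use the parental sgNORAD libraries for which IL32 was chosen, so neither was tested for it.

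The difference between circPRE8 sgNORAD and circPRE2 sgNORAD uses none of the libraries for which IL32 was chosen, and it was tested. The spread in that test was estimated over all 8 libraries, with those for which IL32 was chosen included. IL32 was 5.28-fold lower in circPRE8 sgNORAD, 1.09 ± 0.198 against 6.13 ± 0.186 RPKM (SD, n = 2), with a log2 difference of -2.4 (SE 0.11, limma with Benjamini-Hochberg adjusted p = 3.54e-08). It was lower in both circPRE8 libraries than in either circPRE2 library, and the ratio of read frequencies was 0.176 (95% counting interval 0.156 to 0.198). Of all tested genes, 25.7% were lower and 18% higher in this comparison, and with median-of-ratios scaling 20.3% were lower and 24.4% higher. IL32 had the lowest log2 difference of the 11585 genes, but its rank was 3 with a constant of 0.01 and 2 with a constant of 1 or without circPRE8 sgNORAD replicate 2. These p-values rest on the spread within pairs of libraries, which may be technical because no label says that they came from separate cultures.

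Genes whose levels ran most like IL32 over the 8 libraries were sought among the 358 tested genes whose group means spanned at least 1 log2 unit, by Pearson's r of log2(RPKM + 0.1). All 8 libraries come from 4 groups, so r mostly describes the order of 4 group means. The 12 highest were RINL (r = 0.992), MDGA1 (0.991), B3GALT5 (0.99), IGF2BP3 (0.986), TESC (0.984), BMP5 (0.984), GLT8D2 (0.983), ID2 (0.976), NR2F1 (0.976), ANKRD24 (0.974), ARRDC4 (0.972) and TP53INP1 (0.967). In all 12, every library kept the controls lowest, circPRE8 sgNORAD next and the other 2 groups above, while IGF2BP3, ID2, MDGA1, BMP5 and TP53INP1 had a higher mean in circPRE2 sgNORAD than in parental sgNORAD, unlike IL32. That order was found in 480 tested genes (4.14%), 31 of which spanned at least 1 log2 unit. With a constant of 1 in place of 0.1, 5 of these 12 genes remained among the 12 highest, and with 0.01 there were 9.

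On the log2(RPKM + 0.1) scale, none of the 12 moved as far as IL32. ARRDC4, an arrestin-like gene that responds to glucose, came nearest in size on that scale. It stood at 0.26 and 0.225 RPKM in parental sgControl, 3.1 and 3.23 in parental sgNORAD, 2.82 and 3.03 in circPRE2 sgNORAD and 0.662 and 0.545 in circPRE8 sgNORAD. Its circPRE8 sgNORAD mean was 19.1% of the parental sgNORAD mean, beside 13.9% for IL32. BMP5, a ligand of the bone morphogenetic protein family, stood at 0.00592 and 0.00561, then 0.541 and 0.502, 0.534 and 0.561, and 0.175 and 0.0869 RPKM in the same order of groups. As a ratio of RPKM, its rise with the guide was larger than that of ARRDC4, from control values close to no reads. IGF2BP3, an RNA-binding protein of fetal tissue and tumours, stood at 2.05 and 2.13, 11.1 and 10.6, 13.3 and 13.8, and 5.4 and 4.84 RPKM. RINL, a relative of the RIN activators of Rab GTPases, stood at 1.78 and 1.67, 5.72 and 5.59, 5.07 and 5.27, and 3.5 and 3.73 RPKM, so its circPRE8 sgNORAD level kept 64% of the parental sgNORAD level. ID2, an inhibitor of helix-loop-helix transcription factors, was the most abundant of the 12, at 10.3 and 10.8, 31 and 30.1, 34 and 34.2, and 16.6 and 16 RPKM. Their likeness in shape follows from how they were chosen. The circPRE8 sgNORAD mean ranged from 19.1% (ARRDC4) to 85.8% (TP53INP1, a p53-induced gene) of the parental sgNORAD mean among the 12. The laminin chain gene LAMA4, which was outside the 12, stood at 15.6%.

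**Figure D2:**
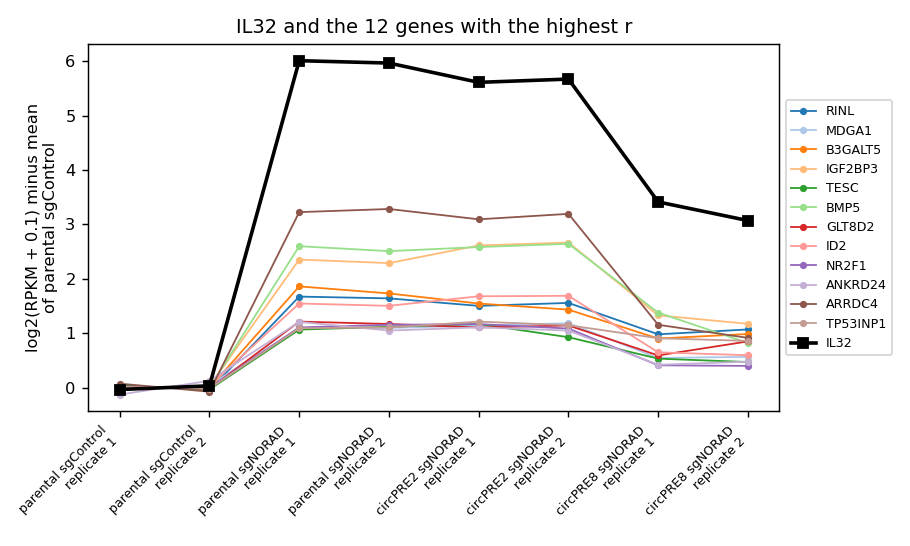
Level of IL32 (black squares) and of the 12 genes with the highest r, as log2(RPKM + 0.1) minus the mean of the 2 parental sgControl libraries, in each of the 8 libraries. In each gene the controls are lowest and circPRE8 sgNORAD next, parental sgNORAD and circPRE2 sgNORAD change places between genes, and IL32 stands highest, near 6 in parental sgNORAD.

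Of the 12, 9 had a RefSeq window, and 0 of the 9 held the cyclic AMP response element or the NF-kappaB motif, which are rare enough over all windows that 0 of 9 says nothing particular of these genes. ANKRD24 and ARRDC4 held the AP-1 motif (7.71% of all windows), and IGF2BP3 and ARRDC4 held the E-box (7.26%). A gene counted if any of its windows held the motif, so counts of genes and shares of windows are not alike. The PUMILIO motif was present in a coding transcript of 3 of the 12, BMP5, ID2 and TP53INP1. This is near the 29.5% of all genes and says nothing particular of the 12. The 6 genes with the lowest r were CA2, a carbonic anhydrase (-0.99), the mesenchymal transcription factor TWIST1 (-0.973), the AMP-activated kinase subunit PRKAA2 (-0.972), NETO2 (-0.967), CADPS2 (-0.957) and MARCKS (-0.945). CA2 stood at 25.8 and 27.4 RPKM in parental sgControl, 13.2 and 12.3 in parental sgNORAD, 13.4 and 12.5 in circPRE2 sgNORAD and 17.1 and 16.6 in circPRE8 sgNORAD, a mirror of IL32 of smaller size.

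The fall of IL32 in circPRE8 sgNORAD was set beside that of the other genes that differed over 2-fold with the NORAD guide, which were 0.725% of the genes tested with IL32 included. Of the 47 others that rose over 2-fold in parental sgNORAD, 39 (83%) were lower in circPRE8 sgNORAD than in circPRE2 sgNORAD, 2 were higher and 6 did not pass the test, where 25.7% of all tested genes were lower. Their median log2 difference was -0.91, against -2.4 for IL32 and -0.037 for all tested genes. The 2 that were higher were RBPMS (0.32), an RNA-binding protein gene, and PXDN (0.55), a matrix peroxidase gene. Of the 36 that fell over 2-fold with the guide, 22 (61.1%) were higher, where 18% of all tested genes were. SPP1 was lower (-0.49) and 13 did not pass, and the median of the 36 was 0.52. The differences of the 2 comparisons come from separate libraries, but their tests share 1 estimate of the spread per gene. With a constant of 1 only 16 and 4 genes passed the 2-fold limit, of which 16 were lower and 3 higher.

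**Figure D3:**
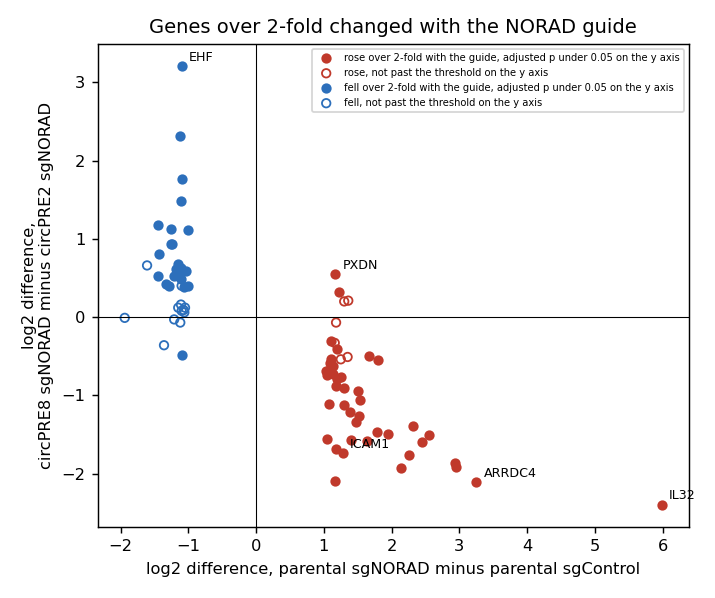
Genes over 2-fold changed with the NORAD guide, by their log2 difference in the parental line (x axis) and between circPRE8 sgNORAD and circPRE2 sgNORAD (y axis), with filled points for adjusted p under 0.05 on the y axis. IL32 lies at 5.99 and -2.4, and 39 of the 47 other genes that rose with the guide lie below 0 as filled points.

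The cytokines that IL32 is known to induce were mostly not expressed. Of 9 listed genes, ICAM1 and CXCL8 were tested. TNF reached at most 0.0356 RPKM, IL6 was at 0 in 7 of the 8 libraries, IL1B, CCL2 and TSLP stayed at or below 0.0606, and CXCL2 and PTGS2 at or below 0.376. ICAM1, an adhesion molecule that binds leukocytes, stood at 0.62 and 0.782 RPKM in parental sgControl, 1.92 and 1.76 in parental sgNORAD, 2.87 and 2.75 in circPRE2 sgNORAD and 0.916 and 0.647 in circPRE8 sgNORAD. It had the direction of IL32 with the guide, with a rise of 2.44-fold (limma with Benjamini-Hochberg adjusted p = 4.7e-05), and between the lines, where it fell to 0.3 of the circPRE2 sgNORAD level (adjusted p = 3.94e-06), but its circPRE8 sgNORAD values overlapped those of the control, unlike IL32. CXCL8, the neutrophil chemokine, was at 0.817 of control with the guide (adjusted p = 0.0407), a call that was lost without any 1 of the 4 parental or the 2 circPRE8 sgNORAD libraries, and it did not pass between the lines.

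Of 29 other secreted interleukins and chemokines listed, 9 were tested, and with the guide 3 rose and 1 fell, where 20.9% and 16.4% of all tested genes did, with a median log2 difference of -0.047 against 0.022 for all tested genes. Interleukin 18 (IL18), another inflammatory cytokine, rose 1.39-fold (adjusted p = 4.36e-05), from 18.8 and 19.2 to 25.1 and 27.9 RPKM. The chemokine gene CXCL16 rose 1.36-fold (adjusted p = 4.22e-05), and IL12A rose 1.37-fold (adjusted p = 0.0117), a call lost without parental sgControl replicate 1 or parental sgNORAD replicate 2. LIF, a cytokine of the interleukin 6 family, fell to 0.649 (adjusted p = 6.89e-06), and without parental sgNORAD replicate 1 there were 2 that fell. Between circPRE8 sgNORAD and circPRE2 sgNORAD the 4 genes went the other way: IL12A fell to 0.436, CXCL16 to 0.605 and IL18 to 0.744, and LIF rose 1.46-fold. CXCL1 also rose 1.36-fold there (adjusted p = 0.0405), so 2 rose and 3 fell, where 18% and 25.7% of all tested genes did, and the CXCL1 call was lost without circPRE2 sgNORAD replicate 2 or circPRE8 sgNORAD replicate 2. IL18, CXCL16 and IL12A thus shared the direction of IL32 in both comparisons at a smaller size. Unlike those of IL32, their circPRE8 sgNORAD values lay below the control values. The gap was narrow for IL18, at 18.6 and 17.5 RPKM against 18.8 and 19.2.

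Of 13 receptors through which IL32 is known to be raised, 5 were tested, and with the guide 1 rose and 3 fell, where 20.9% and 16.4% of all tested genes did. The tumour necrosis factor receptor TNFRSF1A fell to 0.872 (adjusted p = 0.00131), the interleukin 1 receptor IL1R1 to 0.732 (adjusted p = 0.00127) and the interferon gamma receptor subunit IFNGR2 to 0.816 (adjusted p = 0.00233). The RNA sensor TLR3 rose 1.53-fold (adjusted p = 0.00122), and IFNGR1 did not pass. In circPRE8 sgNORAD, TNFRSF1A (1.36-fold), IFNGR2 (1.26-fold) and TLR3 (1.38-fold) were higher than in circPRE2 sgNORAD and 0 were lower, where 18% and 25.7% of all tested genes were. TLR2 was at 0 in all 8 libraries and TLR4 at or below 0.00449 RPKM.

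Most genes of the AP-1, CREB and EGR group of transcription factors changed. All 13 listed were tested, and 8 rose and 3 fell with the guide, where 20.9% and 16.4% of all tested genes did, with a median of 0.2. FOSB rose 1.83-fold (adjusted p = 0.000718), FOS 1.44-fold (adjusted p = 0.00314) and ATF3 1.38-fold (adjusted p = 0.000347), whereas CEBPB fell to 0.739 (adjusted p = 0.000697). In circPRE8 sgNORAD against circPRE2 sgNORAD, 7 fell and 4 rose, where 25.7% and 18% of all tested genes did, with a median of -0.183. FOS fell to 0.478 (adjusted p = 2.07e-05) and EGR1 to 0.551 (adjusted p = 2.11e-06), and CEBPB rose 1.48-fold (adjusted p = 9.39e-05) and FOSL1 1.43-fold (adjusted p = 4.92e-06). FOS itself stood at 3.56 and 3.29 RPKM in parental sgControl, 4.47 and 5.5 in parental sgNORAD, 7.55 and 7.77 in circPRE2 sgNORAD and 3.2 and 4.07 in circPRE8 sgNORAD, so its circPRE8 sgNORAD values overlapped the control while those of IL32 did not. The 7 that fell became 4 without circPRE2 sgNORAD replicate 1 or circPRE8 sgNORAD replicate 2.

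**Figure D4:**
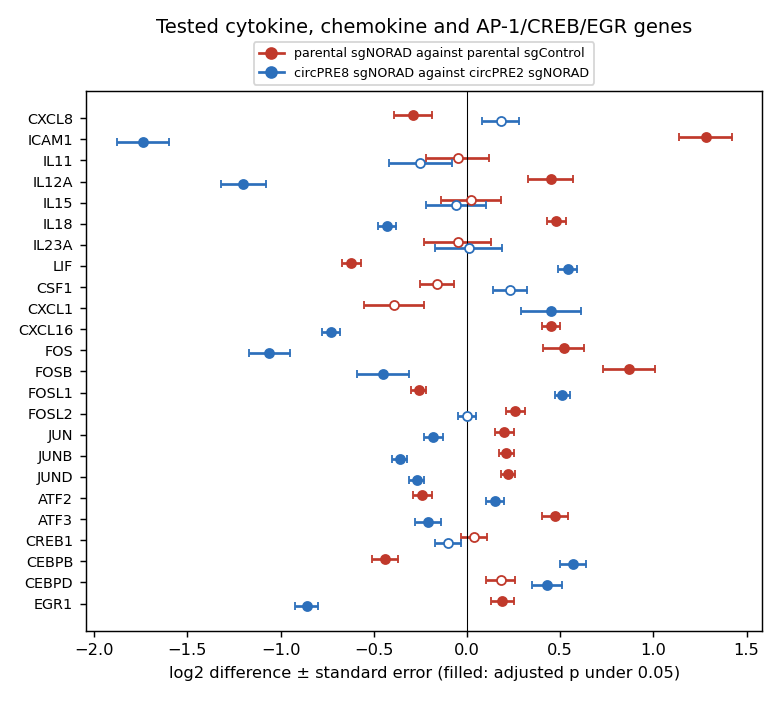
Log2 difference on the log2(RPKM + 0.1) scale, with its standard error, of every tested gene of 3 lists in the NORAD guide comparison (red) and in circPRE8 sgNORAD against circPRE2 sgNORAD (blue), filled where adjusted p was under 0.05. ICAM1 moves most, at 1.28 and -1.74, beside 5.99 and -2.4 for IL32.

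Of 29 NF-kappaB factors and feedback targets listed, 25 were tested, and with the guide 5 rose and 5 fell, with a median of -0.005. These shares are near those of all tested genes (20.9% and 16.4%). The inhibitor gene NFKBIA, a rapid target of the pathway, fell to 0.857 (adjusted p = 0.00341) and TRAF1 to 0.653 (adjusted p = 0.00913, lost without parental sgControl replicate 1), whereas ICAM1, listed here too, rose and BIRC3 rose 1.38-fold (adjusted p = 0.00543). Leaving out 1 library lowered the 5 that rose to as few as 3 (parental sgControl replicate 1 or parental sgNORAD replicate 1) and the 5 that fell to 3 (parental sgControl replicate 1) or 2 (parental sgControl replicate 2). Between the lines 5 rose and 4 fell, where 18% and 25.7% of all tested genes did, with a median of 0.01. Among those that rose was NFKBIA (1.4-fold, adjusted p = 1.4e-05). Among those that fell were ICAM1 and REL (0.711, adjusted p = 0.00749, lost without circPRE2 sgNORAD replicate 1 or circPRE8 sgNORAD replicate 2). The 5 that rose became 2 without circPRE2 sgNORAD replicate 2 and 3 without circPRE8 sgNORAD replicate 2, and the 4 that fell became 1 without circPRE2 sgNORAD replicate 1 and 2 without circPRE8 sgNORAD replicate 1.

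Genes of interferon gamma and JAK-STAT signalling (12 of 17 tested) gave with the guide, where 20.9% of all tested genes rose and 16.4% fell, 2 that rose, STAT2 (1.18-fold) and TAP1 (1.15-fold, a gene that overlaps PSMB9), and 1 that fell, SOCS3 (0.754, adjusted p = 0.000268). The 2 that rose became 1 without parental sgControl replicate 2 or parental sgNORAD replicate 1, and the 1 that fell became 2 without either circPRE2 sgNORAD library. Between the lines 4 rose and 0 fell, where 18% and 25.7% of all tested genes did, and without circPRE2 sgNORAD replicate 2 there were 2 that rose. GBP1, an abundant product of interferon gamma signalling, was at or below 0.0133 RPKM, below the control level of IL32. Of the partners and signalling genes of IL32, 11 of 13 were tested. PRTN3, which encodes proteinase 3, was present at 1.09 to 1.74 RPKM and the integrin subunit ITGAV at 13 to 16, but ITGB3 and ITGB6 were at or below 0.0913 and 0.0387. With the guide 1 of the 11 rose and 1 fell, where 20.9% and 16.4% of all tested genes did (18% and 19.7% with median-of-ratios scaling). STAT3 rose 1.18-fold (adjusted p = 0.00118) and the kinase gene PRKCD fell to 0.856 (adjusted p = 0.00162). The 1 that fell became 4 with median-of-ratios or upper quartile scaling and 2 without parental sgNORAD replicate 1. Between the lines 2 rose and 6 fell, where 18% and 25.7% of all tested genes did (24.4% and 20.3% with median-of-ratios scaling), and 2 fell without circPRE2 sgNORAD replicate 1. The 2 that rose became 1 without either circPRE2 sgNORAD library or without circPRE8 sgNORAD replicate 1. Among 9 DNA methylation genes, all tested, 2 rose with the guide, TET3 (1.27-fold, adjusted p = 0.000624) and DNMT3A (1.14-fold, adjusted p = 0.0472), and MBD2 fell to 0.903, shares near the 20.9% and 16.4% of all tested genes. The DNMT3A call was lost in most alternatives and that of MBD2 without either control library or parental sgNORAD replicate 1. In circPRE8 sgNORAD against circPRE2 sgNORAD 5 fell, where 25.7% of all tested genes did, TET3 to 0.745 and TET1 to 0.668 among them, and MBD2 rose, a call that was lost without circPRE2 sgNORAD replicate 1 or circPRE8 sgNORAD replicate 1.

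Around IL32, the table held 14 genes within 100 kb, of which 10 were tested. With the guide, 3 rose and 4 fell, where 20.9% and 16.4% of all tested genes did, and between circPRE8 sgNORAD and circPRE2 sgNORAD 3 rose and 4 fell, where 18% and 25.7% did. The nearest tested gene was MMP25, a membrane-anchored matrix metalloproteinase gene that ends 4.6 kb before IL32. It stood at 0.47 and 0.394 RPKM in parental sgControl, 0.614 and 0.572 in parental sgNORAD, 0.825 and 0.74 in circPRE2 sgNORAD and 0.353 and 0.33 in circPRE8 sgNORAD. Its difference with the guide was 0.38 and missed the threshold (adjusted p = 0.0516), and between the lines it fell by 1 on the log2 scale (-1.0, adjusted p = 0.000226). BICDL2, which lies 28.4 kb before IL32, stood at 3.47 and 3.27, 4.1 and 4.34, 3.95 and 4.1, and 1.58 and 1.92 RPKM in the same order of groups. Its difference was 0.32 with the guide (adjusted p = 0.0125, lost without parental sgControl replicate 2 or parental sgNORAD replicate 2) and -1.16 between the lines (adjusted p = 1.82e-06). Unlike those of IL32, the circPRE8 sgNORAD values of both genes lay below the control values.

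On the far side, ZSCAN10, 6.7 kb after IL32, was at or below 0.0272 RPKM. The zinc finger gene ZNF205, 30.4 kb after it, had differences of 0.37 (adjusted p = 0.000261) with the guide and -0.38 (adjusted p = 0.000173) between the lines. TNFRSF12A, the receptor of the cytokine TWEAK and 42.9 kb before IL32, went the other way, at -0.34 and 0.18. KREMEN2, at 96.9 kb, had 0.22 and -0.13, and PKMYT1 and PAQR4, at 84.8 and 91.8 kb, had -0.28 and -0.29 with the guide and 0.13 each between the lines. Between the lines, the calls of TNFRSF12A, PKMYT1, PAQR4 and KREMEN2 were lost without circPRE2 sgNORAD replicate 1 or circPRE8 sgNORAD replicate 1, and those of PAQR4 and KREMEN2 also without the other replicate of either line. HCFC1R1 had -0.16 (a call lost without parental sgControl replicate 2 or parental sgNORAD replicate 1) and 0.02, THOC6 -0.02 and 0.09, and ZNF213 0.14 and -0.17. CLDN6, CLDN9 and AC004233.2 were at or below 0.47 RPKM. No tested neighbour differed by more than 0.38 with the guide, beside 5.99 for IL32.

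**Figure D5:**
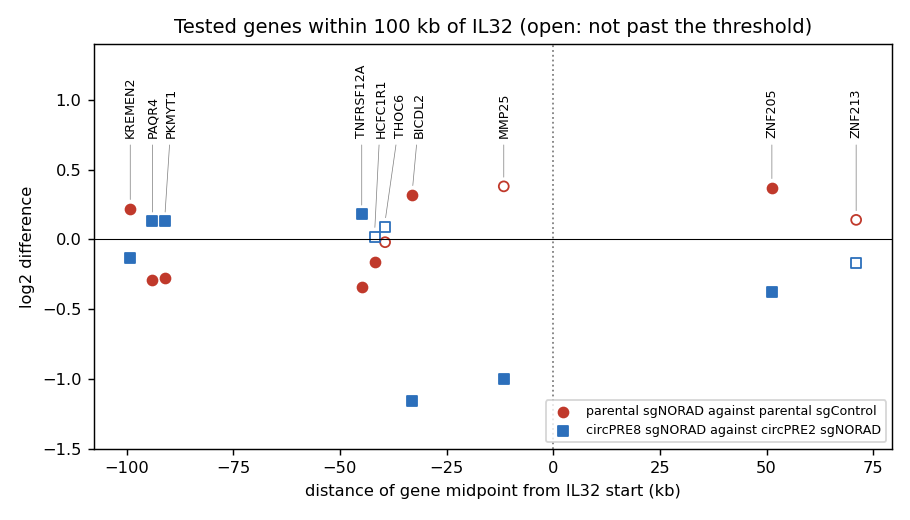
Log2 differences on the log2(RPKM + 0.1) scale of the 10 tested genes within 100 kb of IL32, by the distance of each gene's midpoint from the start of IL32 (kb, dotted line), with open symbols where adjusted p was 0.05 or more. MMP25 and BICDL2 stand lowest between the lines, at -1.0 and -1.16.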

How the data were processed

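For 8 poly(A) libraries the authors deposited RPKM (reads scaled by the authors to gene length and library size), in 1 table of 19411 genes. Per the submitters' processing notes, the authors used STAR, featureCounts 1.6.0, edgeR 3.24.0 and hg38; for annotation, strand use and filters, nothing is given in the sources used here. All sample columns were used (0 left out). A design text of the series describes another kind of library and was not used.

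Identifiers matched GENCODE release 29 for 19379 genes when versions were ignored. Low values stepped by whole reads (within 0.1 read) for the 8691 genes matched with their version, which gave the scaling size of each library (28.39 to 50.28 megareads); 1 read in a gene of 1 kb was then 0.0199 to 0.0352 RPKM. IL32 reads used its merged exon length of 3209 bases.

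Groups came from titles, genotype and guide labels. The 11585 genes that reached 0.5 RPKM in 2 or more libraries were tested as log2(RPKM + 0.1) with limma 3.58.1 in R 4.3.3, with 1 coefficient per group over all 8 libraries, an intensity trend (4 residual degrees of freedom, 11.6 after moderation) and two-sided p-values with Benjamini-Hochberg adjustment across these genes (threshold 0.05). The script was tested on simulated data. Fold changes are antilogs of log2(RPKM + 0.1) differences. Same-numbered replicates did not deviate together (correlations from -0.173 to 0.211), so numbers were not used as pairs.

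IL32, the gene lists and the comparisons were chosen with earlier results of these data known. Named genes were the 12 with the highest and 6 with the lowest r, genes switched on from below 0.1 RPKM, neighbours within 100 kb, the partners of IL32 and up to 4 members of each list with the largest called differences per comparison; LAMA4, RBPMS, PXDN, SPP1, other AP-1 family genes and untested list genes were named after their values were seen. Motifs were searched in RefSeq windows and GENCODE transcripts on the letters given. Alternatives were other constants, filters and scalings, a replicate block and each library left out.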

Additional observations from a re-analysis of the deposited data

How the results depend on the processing

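The IL32 difference between circPRE8 sgNORAD and circPRE2 sgNORAD kept its direction and its call in all 15 alternatives. With a constant of 0.01, the IL32 difference with the guide was 7.82. With a constant of 1, it was 3.1, that of circPRE8 sgNORAD against parental sgNORAD was -2.08, and 16 risers were lower and 3 fallers higher between the lines, since fewer genes passed 2-fold. Leaving out 1 library gave IL32 differences of 5.95 to 6.02 with the guide, -0.38 to -0.32 for circPRE2 and -2.92 to -2.58 for circPRE8 sgNORAD against parental sgNORAD, and -2.57 to -2.23 between the lines. Genes called ranged from 2905 to 4116, 718 to 2360, 4641 to 5912 and 3173 to 5485 in those 4 comparisons, against 4326, 2173, 6053 and 5056 with all libraries. For circPRE2 sgNORAD against parental sgNORAD the count was 718 without circPRE2 sgNORAD replicate 1, 1225 without its replicate 2 and 1436 without parental sgNORAD replicate 1, and between the lines it was 3173 without circPRE2 sgNORAD replicate 1. Risers lower between the lines ranged from 35 to 46 and fallers higher from 19 to 28, and genes with r of at least 0.95 from 115 to 214 (139 with all libraries, 214 and 213 without circPRE8 sgNORAD replicate 1 or 2). With the replicate number as a block, 4421, 2229, 6121 and 5133 genes were called, and the IL32 call held. Of 205 called differences of named genes, 55 lost their call in at least 1 alternative and 0 reversed. The cause of these changes was not tested. Control reads of IL32 (3 and 4) limit the size of its rise.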
